A study of Homo sapiens with 114 samples.

Results

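The CsA 12 h experiment was read from 6 microarrays of HK-2 cells, 3 from cultures exposed to CsA for 12 h and 3 from control cultures collected at the same time. They belong to a series of 38 groups of 3 arrays that cover 9 compounds, and were selected by the compound, time and replicate number in their labels, not by any measured value. CsA is the usual abbreviation of cyclosporin A, which the labels do not spell out. HK-2 is an immortalised human line derived from the kidney proximal tubule, so all arrays come from 1 line. Cells of both groups were grown in the same mixture of DMEM and Ham's F12 with EGF, hydrocortisone, insulin and transferrin, were treated near confluence, and differed by CsA against its vehicle. The labels give neither the dose of CsA nor the vehicle by name. The same laboratory number stands on all 12 CsA-family arrays, which also include 3 CsA and 3 control arrays at 48 h. The labels call the replicates biological. Arrays of CsA and control that share a number deviated together from their group means, with r over all genes of 0.79, 0.83 and 0.93 in the 3 pairs at 12 h. Numbers 1 and 2 also did so when crossed, with 0.71 for CsA 1 with control 2 and 0.68 for CsA 2 with control 1. These correlations therefore do not settle how arrays 1 and 2 pair. Replicate 3 stood apart from replicates 1 and 2 in both groups: treated and control arrays correlated at 0.99 or above within a number, and at 0.94 to 0.95 between number 3 and the others. The values are therefore given as differences within pairs, and an effect shared by a whole group, such as plate or hybridisation day, cannot be told apart from CsA.

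Cyclosporin A is an immunosuppressant that binds cyclophilins. Its complex with cyclophilin A inhibits the phosphatase calcineurin and so keeps NFAT transcription factors out of the nucleus, and its clinical use is limited by damage to the kidney tubule and vessels. Cyclophilins are prolyl isomerases that assist protein folding, and cyclophilin B (PPIB) works in the lumen of the endoplasmic reticulum. Unfolded protein in that compartment is sensed by IRE1 (ERN1), PERK (EIF2AK3) and ATF6. These sensors raise transcription of chaperones, disulfide isomerases and genes of ER-associated degradation (ERAD), in part through XBP1 and ATF6 bound at ER stress response elements in the promoters.

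No gene passed the test at 12 h. Of 10806 genes with a log2 level over 4 on at least 3 of the 12 CsA-family arrays, 0% had an adjusted p under 0.05 in limma with pairs as a fixed block, and the smallest adjusted p was 0.205. At an unadjusted p under 0.05 stood 749 genes, 3.01% of all genes tested on the higher side and 3.92% on the lower side. That count depends on the arrays fitted and on the block. In limma on the 12 h arrays alone with the block it was 1360 of 10587 genes, with a smallest adjusted p of 0.0973. On the same arrays without the block it was 188, with a smallest adjusted p of 0.411. What the 12 h arrays did show was a small set of genes that differed by 0.5 log2 units or more in all 3 pairs, 13 on the higher side, of which 5 belong to the list of ER chaperones and ERAD genes. The genes below are therefore given by their values, and none of the 12 h differences is a called change. In bulk RNA a difference in the share of cells that express a gene and one in RNA per cell cannot be told apart.

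The promoters of 3 of these genes are printed because they hold an ER stress response element and their transcripts were higher with CsA in each pair: HSPA5 encodes the main ER chaperone BiP, XBP1 a transcription factor of the unfolded protein response, and SDF2L1 a cofactor of BiP. Each run is 300 bases of RefSeq GRCh38.p14, 5′ to 3′ on the gene's own strand, from 250 bases before to 50 bases after the annotated start. Capitals mark the match to ERSE (CCAAT and CCACG with 9 bases of any kind between them) in HSPA5 and XBP1, and to ERSE-II (ATTGG and CCACG with 1 base of any kind between them, here on the opposite strand) in SDF2L1.
HSPA5, minus strand, chr9:125241294-125241593: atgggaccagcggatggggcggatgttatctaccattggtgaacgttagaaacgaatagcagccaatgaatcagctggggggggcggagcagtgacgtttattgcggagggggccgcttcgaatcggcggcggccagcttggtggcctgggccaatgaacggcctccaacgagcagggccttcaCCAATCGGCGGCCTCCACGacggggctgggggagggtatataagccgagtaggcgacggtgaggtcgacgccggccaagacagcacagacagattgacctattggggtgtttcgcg
XBP1, minus strand, chr22:28800520-28800819: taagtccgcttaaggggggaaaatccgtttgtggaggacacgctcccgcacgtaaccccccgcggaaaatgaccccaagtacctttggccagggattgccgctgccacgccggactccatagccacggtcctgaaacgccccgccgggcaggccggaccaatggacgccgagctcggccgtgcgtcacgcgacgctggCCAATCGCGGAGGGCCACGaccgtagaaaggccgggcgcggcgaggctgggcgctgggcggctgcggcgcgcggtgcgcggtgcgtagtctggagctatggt
SDF2L1, plus strand, chr22:21642052-21642351: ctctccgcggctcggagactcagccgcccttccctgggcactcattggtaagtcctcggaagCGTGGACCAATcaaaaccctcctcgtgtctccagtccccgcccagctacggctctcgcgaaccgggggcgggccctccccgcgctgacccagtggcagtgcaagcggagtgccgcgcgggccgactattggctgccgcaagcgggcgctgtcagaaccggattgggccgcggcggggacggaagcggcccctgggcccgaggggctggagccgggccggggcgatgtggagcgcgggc
The matches span bases -66 to -48 in HSPA5, -52 to -34 in XBP1 and -188 to -178 in SDF2L1, counted from the start site. Both strands of 35116 RefSeq promoter windows of this length were searched for both motifs. ERSE was found in 0.0769% of the windows and ERSE-II in 0.0541%, and 0 windows held both. A window was available for 23 members of the list of ER chaperones and ERAD genes. ERSE was found for 7 of them (HSPA5, HSP90B1, CALR, CANX, PDIA6, CRELD2 and XBP1) and ERSE-II for 3 (HYOU1, SDF2L1 and HERPUD1). The 10 members with a match had a median CsA minus control difference of 0.58 on the log2 scale (range 0.21 to 1.16), and the 13 without had 0.41 (range -0.36 to 0.99), so the ranges overlapped. These are matches of letters in one window and do not show that a factor was bound.

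The list of ER chaperones and ERAD genes was higher with CsA at 12 h in nearly all its members. Of 28 members 27 were tested and 1 was not in the table. The median difference was 0.42 on the log2 scale, against -0.01 over all genes tested, and was 0.49, 0.38 and 0.41 in pairs 1 to 3. In all 3 pairs, 24 members were higher, where 18% of all genes tested were. Among the 24 is DERL3, which was higher by only 0.013, 0.004 and 0.098 at a mean level of 4.32, near the filter. ERN1 and DERL1 were lower in all 3 pairs, where 20.1% of all genes were, and ATF6 was mixed. At an unadjusted p under 0.05 stood 21 members on the higher side, and ERN1 on the lower. That count depends on the pairing, since it was 7 without the replicate block. It was 10 without pair 1, 12 without pair 2 and 15 without pair 3. For 15 members there were 29 other probe sets with levels over 4, and 19 of these were higher in all 3 pairs.

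**Figure D1:**
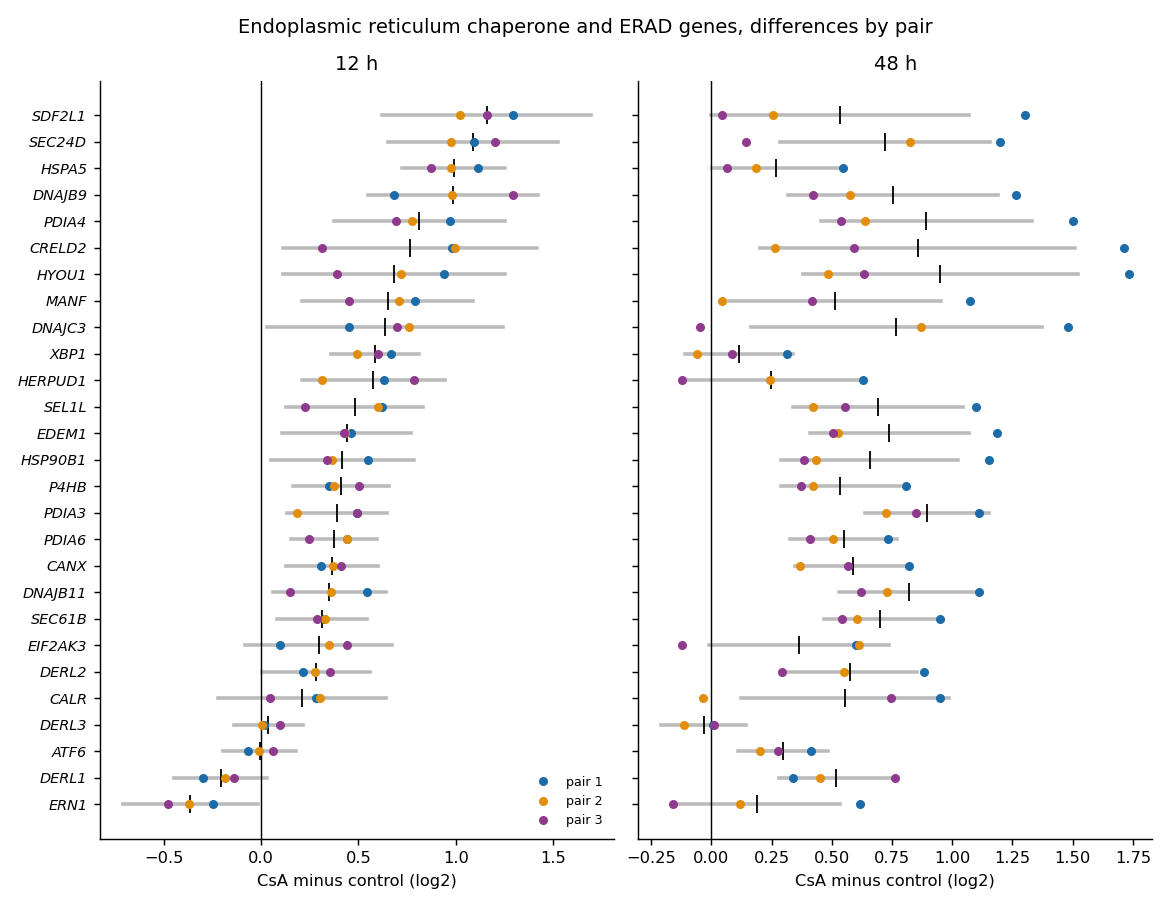
Differences between CsA and control (log2 units, horizontal axis) for the 27 tested members of the ER chaperone and ERAD list (vertical axis) at 12 h (left) and 48 h (right). Points are the 3 pairs, ticks the mean and grey bars the 95% interval from limma. At 12 h 24 members lie to the right of 0 in every pair, and SDF2L1, SEC24D, HSPA5, DNAJB9 and PDIA4 lie at or beyond 0.5 in every pair.

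Chaperones and their cofactors were higher with CsA in each pair on their brightest probe sets. HSPA5 read 13.12, 13.12 and 12.80 on the control arrays and 14.24, 14.10 and 13.68 on the CsA arrays with the same numbers. The lowest CsA array was above the highest control array, so the groups did not overlap. The difference was 0.99 ± 0.111 (mean of the 3 pairs ± SE), 1.98-fold, with an adjusted p of 0.278 in limma. The SE of each CsA difference, here and below, came from the limma fit of the CsA-family arrays of both times. It therefore also holds the spread at the later time and is not the spread of these pairs alone. With limma's trend and robust options HSPA5 was the one gene called, at an adjusted p of 0.0124. A further probe set for HSPA5 was higher by 0.94, 1.17 and 0.65 in the 3 pairs. SDF2L1, which binds BiP cofactors, read 6.82, 7.04 and 6.98 in control and 8.12, 8.06 and 8.14 with CsA. All CsA arrays were more than 1 log2 unit above every control array, and the difference was 1.16 ± 0.225. DNAJB9, a BiP co-chaperone that also restrains IRE1, read 8.85, 8.90 and 8.69 in control and 9.53, 9.88 and 9.98 with CsA. Its groups did not overlap either (0.99 ± 0.183), and its 2 other probe sets were higher in all 3 pairs, by 0.71 to 1.75. DNAJC3, HYOU1 and DNAJB11, further BiP partners, were higher by 0.64, 0.68 and 0.35. The lectin chaperones CANX and CALR were higher by 0.36 and 0.21, and the ER form of HSP90 (HSP90B1) by 0.42. In pair 3 CALR was higher by only 0.05, and its other probe sets over 4 read -0.03 and -0.28 there. A dimmer CANX probe set read -0.23 in pair 3, while its other probe sets over 4 were higher in each pair. MANF and CRELD2, secreted ER stress proteins, were higher by 0.65 and 0.76.

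Disulfide isomerases, which form and shuffle disulfide bonds in new proteins, were higher in each pair on their brightest probe sets. PDIA4 read 9.76, 9.61 and 9.58 in control and 10.73, 10.38 and 10.27 with CsA. The lowest CsA array stood 0.5 above the highest control array, and the difference was 0.81 ± 0.185. PDIA3, PDIA6 and P4HB were higher by 0.39, 0.37 and 0.41. PDIA3 was also higher in each pair on another probe set, but differed by 0.86, 0.52 and -0.18 on a dimmer probe set. ERO1B, an oxidase that recharges these isomerases and is not on the list, was among the low genes of this set at 4.22, 4.68 and 4.69 in control. It read 5.43, 5.59 and 5.64 with CsA, a difference of 1.02 ± 0.235, and the groups did not overlap.

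Export and degradation genes were higher in most cases on their brightest probe sets, except that DERL1 was lower and DERL3 differed by only 0.04. SEC24D, a cargo-binding subunit of the COPII coat that buds vesicles from the ER, read 8.27, 8.52 and 8.19 in control and 9.36, 9.50 and 9.40 with CsA. The groups were separated by more than 0.8, and the difference was 1.09 ± 0.184 (adjusted p 0.612 in limma). SEL1L, EDEM1 and HERPUD1, parts of the ERAD machinery, were higher by 0.48, 0.44 and 0.58, and DERL2 by 0.28. Other probe sets of SEL1L read -0.10 and -0.03 in pair 3. Another probe set of DERL2 differed by -0.29, -0.46 and 0.30 in the pairs, so its direction is not settled. DERL1 was lower by 0.21 on its brightest probe set and higher by 0.04 on another (0.07, 0.03 and 0.01 in the pairs), so its probe sets disagree in direction. The translocon subunit SEC61B was higher by 0.31.

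The sensors and transcription factors did not move as one. XBP1 read 8.60, 8.76 and 8.69 in control and 9.27, 9.25 and 9.28 with CsA, without overlap, a difference of 0.59 ± 0.0945. These probe sets do not tell the spliced from the unspliced XBP1 transcript. ERN1, which splices XBP1, read 6.49, 6.87 and 8.05 in control and 6.24, 6.51 and 7.57 with CsA. It was lower within each pair (-0.36 ± 0.145), while the groups overlapped because replicate 3 was high in both. EIF2AK3 was higher by 0.30 ± 0.158 and ATF6 differed by -0.01 ± 0.079. CREB3L2, an ER-anchored transcription factor related to ATF6 that is not on the list, had the widest difference of the 13 higher genes. It read 8.09, 8.20 and 7.60 in control and 9.28, 9.26 and 9.07 with CsA, a difference of 1.24 ± 0.183 (2.36-fold) with no overlap.

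**Figure D2:**
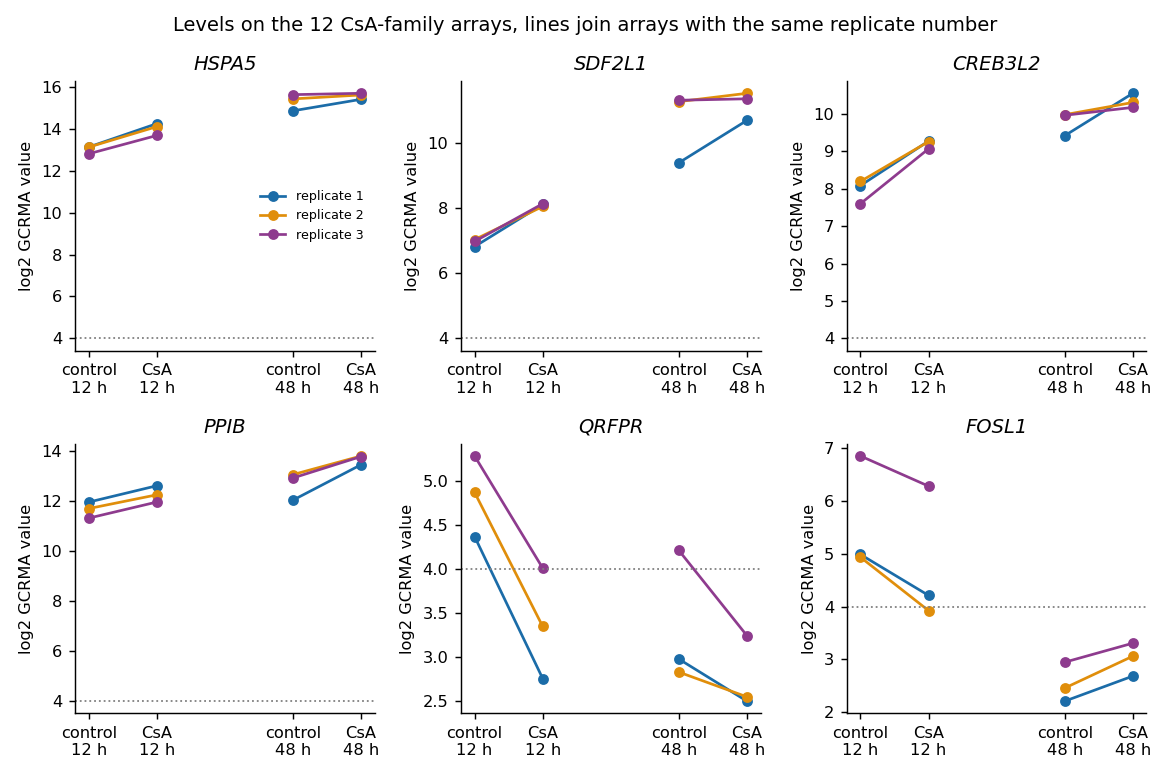
Deposited log2 levels (vertical axis) of 6 genes on the 12 CsA-family arrays (horizontal axis: control and CsA at 12 h, then at 48 h); lines join arrays with the same replicate number and the dotted line marks the filter at 4. HSPA5, SDF2L1, CREB3L2 and PPIB are higher with CsA in each 12 h pair, QRFPR and FOSL1 lower, and the 48 h controls of HSPA5 and SDF2L1 already lie above the 12 h CsA arrays.

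A difference of at least 0.5 log2 units (1.41-fold) with one sign in all 3 pairs was found for 20 genes. Of these 13 were higher (0.12% of all genes tested) and 7 lower (0.0648%). Besides the 5 list members and CREB3L2, ERO1B and PPIB, the higher ones were SLC33A1, OSTC, GMPPA, RAPGEF3 and PDGFRL. SLC33A1 carries acetyl-CoA into the ER lumen. It read 8.83, 8.70 and 9.11 in control and 9.70, 9.71 and 10.07 with CsA (0.95 ± 0.147), and of its 3 other probe sets 2 were higher in every pair. OSTC, a subunit of the oligosaccharyltransferase that attaches N-glycans, was higher by 0.65 ± 0.119. GMPPA, which regulates the supply of the mannose donor for glycans, was higher by 0.64 ± 0.218. RAPGEF3, a cAMP-activated exchange factor for Rap, was higher by 0.68 ± 0.156 and PDGFRL by 0.77 ± 0.193, the latter from control levels of 3.89, 3.90 and 4.31 near the filter. For 8 of the 20 genes there were 12 other probe sets with levels over 4, and 10 of these had the same sign in all 3 pairs. Leaving out 1 pair relaxes the criterion, and the count was then 76, 67 and 73 without pairs 1, 2 and 3.

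Some ER genes outside the list were looked up after their values had been seen. SSR1 and SSR3, subunits of the translocon-associated TRAP complex, were higher by 0.60 ± 0.132 and 0.35 ± 0.0745. LMAN1, a cargo lectin of ER export, was higher by 0.40 ± 0.0807, the ER lectin MLEC by 0.35 ± 0.0799 and the calcium-binding NUCB2 by 0.38 ± 0.077. All of these were higher in all 3 pairs. The other genes of lowest unadjusted p on the higher side were SLC2A3, a glucose transporter, at 0.50 ± 0.077, and the long non-coding RNA SFTA1P at 0.60 ± 0.103.

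The drug's own binding proteins differed little, with one exception. Of 20 cyclophilins, FK506-binding proteins and calcineurin subunits (with MTOR) 19 were tested, with a median difference of 0.03. In all 3 pairs 3 were higher and 6 lower, where 18% and 20.1% of all genes tested were. PPIB read 11.95, 11.70 and 11.31 in control and 12.61, 12.25 and 11.96 with CsA. Each CsA array was 0.55 to 0.65 above its control, although the lowest CsA array only matched the highest control array. The difference was 0.62 ± 0.133, and 0.67 on its other probe set. Cyclophilin A (PPIA), the main cytosolic binding partner of the drug, read 14.93 on each CsA array and 15.03, 14.94 and 15.01 in control (-0.06 ± 0.0808). The mitochondrial cyclophilin PPIF differed by -0.02 ± 0.0853 and PPID by -0.02 ± 0.0714. PPIC, another ER cyclophilin, was higher by 0.17 ± 0.119, and the nuclear PPIG was lower by 0.22 (-0.22 ± 0.074). FKBP1A, which binds FK506, differed by 0.03 and FKBP4 by -0.25. The calcineurin subunits PPP3CA and PPP3CB differed by -0.18 ± 0.0948 and -0.13 ± 0.109, and PPP3R1 by 0.26 ± 0.222 with pairs of both signs. Among 8 tested genes of the calcineurin and NFAT readout the median was 0.08. RCAN1, a feedback inhibitor that NFAT induces, was lower by 0.22, 0.03 and 0.25 in the pairs (-0.17 ± 0.1), and differed by 0.0305 with the mean of its probe sets. AKAP5, an anchor for calcineurin, was higher by 0.37 ± 0.0921. TNF, IL2 and other members without a value over the filter were not tested.

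The lower side held genes of mixed function. DGAT2, which makes triglycerides at the ER, read 6.74, 7.00 and 7.71 in control and 5.70, 5.49 and 5.71 with CsA. All CsA arrays were below all controls, and the difference was -1.52 ± 0.304 (adjusted p 0.647 in limma), with -0.78 on its other probe set. QRFPR, a neuropeptide receptor, read 4.37, 4.87 and 5.28 in control and 2.76, 3.35 and 4.01 with CsA. The groups did not overlap, but only the third CsA array reached the filter, so the difference runs from a low level to about background (-1.47 ± 0.141, adjusted p 0.205).
FOSL1, a subunit of the AP-1 transcription factor, read 4.99, 4.94 and 6.86 in control and 4.21, 3.92 and 6.28 with CsA. Replicate 3 was high in both groups, which overlapped, and within pairs the difference was -0.79 ± 0.104. ATF5, a stress-induced transcription factor, was lower by 0.50, 0.82 and 0.50 in the pairs. Another ATF5 probe set was also lower in each pair, while a further probe set differed by -0.05, 0.11 and 0.12. GSAP, a gamma-secretase activator, was lower by 0.67, 0.53 and 0.62, and MAP3K6, a stress-activated kinase, by 0.53, 0.96 and 1.07. ELMOD1 was lower by 0.56, 0.55 and 0.67 and ended near the filter. Of the other genes of lowest p on this side, the granule-docking protein SYTL4 differed by -0.52 ± 0.0709, the non-coding RNA DLEU2 by -0.81 ± 0.157 and the topoisomerase TOP3A by -0.58 ± 0.107. MATR3, CDKN2AIP and POLR3E, nuclear RNA and transcription proteins, differed by -0.41, -0.43 and -0.47. A further probe set of TOP3A was lower in each pair, and another differed by -0.25, -0.55 and 0.22. POLR3E differed by 0.10, 0.01 and -0.29 on another probe set. Looked up after their values had been seen, IGFBP3, MIA and E2F2 were lower in all 3 pairs, by 0.64, 0.82 and 0.56 on average. IGFBP3 differed by -0.14, -0.96 and 0.15 on its other probe set.

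**Figure D3:**
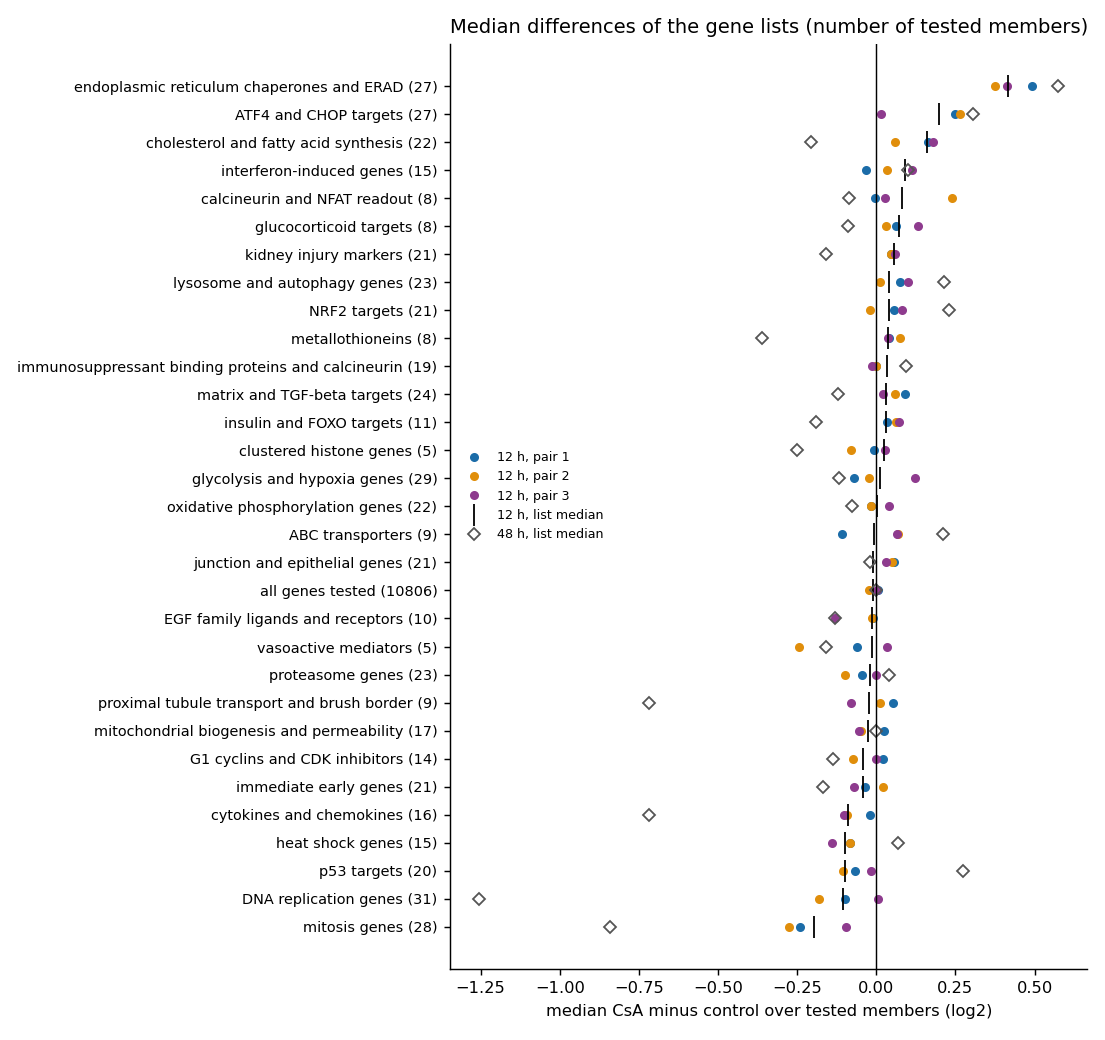
Median difference between CsA and control (log2 units, horizontal axis) over the tested members of each of 30 gene lists and of all genes tested (vertical axis, number of members in brackets). Points are the 12 h pairs, ticks the 12 h median of the members' mean differences and open diamonds the 48 h median; the ER list stands highest at 12 h (0.42) and the mitosis list lowest (-0.20).

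The amino acid branch of the stress response, which PERK can also engage through ATF4, was higher in pairs 1 and 2 but not in pair 3. The 27 tested ATF4 and CHOP targets had a median of 0.20, with 0.25, 0.27 and 0.01 in pairs 1 to 3. In all 3 pairs 10 were higher and 1 was lower, where 18% and 20.1% of all genes tested were. SLC7A11, the cystine transporter, was higher by 0.93, 0.68 and 0.31 (0.64 ± 0.141), the pseudokinase TRIB3 by 0.38 ± 0.11 and ATF4 itself by 0.34 ± 0.112. ASNS and ALDH1L2, enzymes of asparagine and mitochondrial folate metabolism, were looked up after their values had been seen. ASNS read 9.73, 9.49 and 8.74 in control and 10.81, 10.55 and 8.65 with CsA, so pair 3 showed no gain. ALDH1L2 had the highest mean difference of all genes tested (1.41 ± 0.331), made of 1.61, 2.22 and 0.41. Only 4 of the arrays in these pairs were over 4 for ALDH1L2, and its mean level over all of them was 4.74. Some of its values therefore lay at or below the filter, where differences are limited by background. DDIT3, which encodes the ER stress factor CHOP, differed by 0.17 ± 0.139, with -0.02, 0.24 and 0.28 in the pairs.

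Sterol and lipid synthesis genes were slightly higher. The 22 tested members had a median of 0.16, and 11 were higher in all 3 pairs and 0 lower, where 18% and 20.1% of all genes tested were. LSS, a lanosterol synthase, was higher by 0.39, 0.38 and 0.36, the sterol carrier STARD4 by 0.33 ± 0.0803 and the desaturase SCD by 0.30 ± 0.0868. ACSS2, which makes cytosolic acetyl-CoA, was looked up after its values had been seen and was higher by 0.42, 0.55 and 0.45.

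Mitosis and heat shock genes were slightly lower, and DNA replication genes were mixed. All 28 mitosis genes had a negative mean difference, with a median of -0.20. Of these 18 were lower in all 3 pairs, where 20.1% of all genes tested were lower and 18% higher. However, 0 of the mitosis genes had an unadjusted p under 0.05 in limma, where 3.92% of all genes tested did on the lower side. The list's medians were -0.24, -0.28 and -0.10 in pairs 1 to 3. The cyclin CCNA2, the spindle protein ASPM and the kinase AURKA differed by -0.27, -0.30 and -0.23. Of 31 DNA replication genes 12 were lower in all 3 pairs, 2 higher and 17 mixed, with a median of -0.10. Its medians were -0.10 and -0.18 in pairs 1 and 2 and 0.004 in pair 3. POLA1, the catalytic subunit of the primase polymerase, differed by -0.34 ± 0.089, GINS1 of the replicative helicase by -0.28 ± 0.0817 and RFC3 of the clamp loader by -0.33 ± 0.11. Of 15 heat shock genes 11 were lower in all 3 pairs (median -0.10), among them BAG3 at -0.23 and DNAJA1 at -0.20. Most of this list therefore did not share the sign of the ER chaperones.

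The cytokine and chemokine list gave no single direction. Of 16 cytokine and chemokine genes 6 were lower in all 3 pairs, 2 higher and 8 mixed, with a median of -0.09. Of all genes tested 20.1% were lower and 18% higher in all 3 pairs. CCL2, a monocyte chemokine, read 5.00, 6.16 and 5.75 in control and 4.74, 5.37 and 4.30 with CsA (-0.84 ± 0.297), and the groups overlapped. TNFAIP3, an NF-kappaB inhibitor, differed by -0.53 ± 0.185, with pairs of both signs (0.48, -0.39 and -0.65) on its other probe set, and NFKBIA by -0.32 ± 0.167. Among 21 kidney injury markers the median was 0.05, and the keratins KRT7 and KRT19 were higher by 0.44 ± 0.16 and 0.24 ± 0.0957. Among 29 glycolysis and hypoxia genes the median was 0.01, and TXNIP, a glucose-responsive thioredoxin inhibitor, differed by -0.22, -1.09 and -0.37 in the pairs. The drug efflux pump ABCB1, for which cyclosporin A is a substrate, differed by -0.14 ± 0.15. Its other probe set was higher by 0.36, 0.19 and 0.27 in the pairs, so its probe sets disagree in direction. The other 19 lists had medians from -0.10 (p53 targets) to 0.09 (interferon-induced genes), near the -0.01 of all genes tested.

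The labelled cell type was only in part borne out by marker transcripts. Of 11 proximal tubule markers in the table PAX8 alone was over 4 on all 6 arrays. The other 10, including LRP2, CUBN, AQP1 and SLC34A1, were at or below 4 on all of them. Of 5 epithelial markers 4 (KRT8, KRT18, KRT19 and EPCAM) were over 4 on all 6, and CDH1 was over 4 on 4 of the 6. Of 6 fibroblast markers 3 (COL1A1, DCN and LUM) were over 4 on all 6 arrays, while COL3A1 and PDGFRB were at or below 4 on all 6. The fibroblast list had summed linear levels of 3158 to 3753 in control and 3316 to 3470 with CsA. Markers of distal tubule, endothelium and leukocytes were over 4 on all 6 arrays in 0 cases. The 3′ to 5′ signal difference of the ACTB control probes, a sign of RNA integrity, was lower in each CsA array than in its control, with 0.80 against 0.82, 0.93 against 1.05 and 0.82 against 0.90. That of GAPDH was higher with CsA in pairs 1 and 3 and lower in pair 2, with -0.097 against -0.132, -0.154 against -0.136 and -0.093 against -0.128. Their part in the results was not tested.

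The 48 h arrays belong to the same family and share no array with 12 h. CsA differences were wider there: the SD over all genes of the mean difference was 0.17 at 12 h and 0.42 at 48 h, and 7 genes at 12 h and 399 at 48 h had a mean difference of at least 2-fold. In the same fit 1069 genes rose at 48 h (9.89% of all genes tested) and 1415 fell (13.1%) at an adjusted p under 0.05. These counts rest on the pairing, since 1 gene was called without the replicate block. Across the 10806 genes, which are not independent, the 12 h and 48 h differences had r = 0.31. Of the ER list 16 members rose at 48 h and 0 fell, with a median of 0.58. PDIA4, SEC24D, DNAJB9, SEL1L, EDEM1 and SEC61B were among those that rose, by 0.89, 0.72, 0.75, 0.69, 0.74 and 0.70. HSPA5 differed by 0.27 ± 0.111 at 48 h (adjusted p 0.129) and XBP1 by 0.11. The 48 h controls of the list were themselves higher than the 12 h controls, with mean levels over its members of 11.39 and 9.80, and HSPA5 read 14.85, 15.42 and 15.62 in them.

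Outside the list, PPIB rose by 1.01 at 48 h (adjusted p 0.00497), OSTC by 0.74, ERO1B by 1.14, GMPPA by 1.30 and SLC33A1 by 0.68. DGAT2 fell by 1.59, SYTL4 by 0.92, GSAP by 0.61 and CCL2 by 1.8, and ABCB1 fell by 0.84. The replication and mitosis lists had lower medians than at 12 h: 28 of 31 replication genes fell (median -1.25) and 22 of 28 mitosis genes fell (median -0.84).

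**Figure D4:**
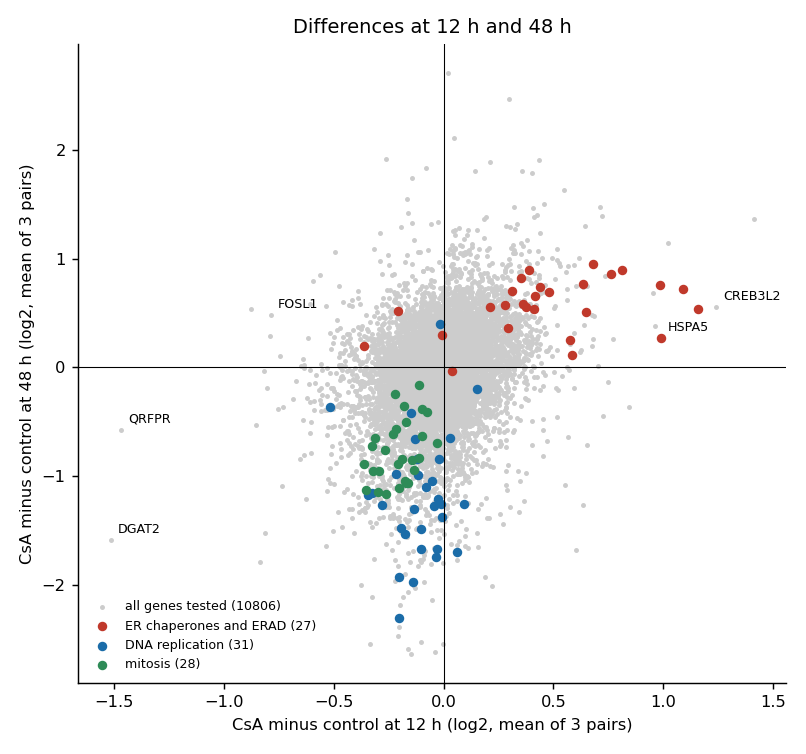
Mean difference between CsA and control at 12 h (horizontal axis) against 48 h (vertical axis), in log2 units, for all 10806 genes tested (grey), ER chaperones and ERAD genes (red), DNA replication genes (blue) and mitosis genes (green). Most ER genes lie to the right of 0 at 12 h, with ERN1, DERL1 and ATF6 to the left. At 48 h 28 of 31 replication and 22 of 28 mitosis genes fell, and all mitosis genes lie below 0.

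The difference between the 48 h and the 12 h response was tested directly, and 209 genes passed, 54 with a higher value at 48 h (0.5% of all genes tested) and 155 with a lower one (1.43%). Of the 209, 6 were at or below 4 on all 6 arrays of 12 h and 1 on all 6 of 48 h. No member of the ER list was among the 209, and the estimate for HSPA5 was -0.72 ± 0.157 (adjusted p 0.0666). Of the DNA replication list 10 members were lower at 48 h, among them GINS1 by -0.99 and POLA1 by -0.84, and of the mitosis list 1 was. The G1 cyclin CCNE2 differed by -0.22 at 12 h and -1.77 at 48 h (difference -1.55), and the CDK inhibitor CDKN1A by 0.15 and 1.02 (difference 0.87). LAMP3, a lysosomal membrane protein, read 2.31 to 2.35 on all 12 h arrays and differed by 2.71 at 48 h. Below the filter at 12 h were also CLIP4, TMEM140 and LINGO2, so for these genes 12 h gives no response to compare. The widest differences on the lower side were those of DEFB1, an epithelial defensin (-2.54), PDK4, a mitochondrial kinase that restrains pyruvate oxidation (-2.49), the helicase BRIP1 (-2.43), BRI3BP (-2.43) and the histone chaperone ASF1B (-2.22). Each of these had a 12 h difference between -0.33 and 0. ACSS2 had opposite signs at the 2 times, 0.47 at 12 h and -0.68 at 48 h (difference -1.15, adjusted p 0.0236). FOSL1 also passed (difference 1.27 ± 0.148, adjusted p 0.0236), but all its 48 h levels were below 4, so 48 h gives no response of FOSL1 to compare. Leaving out any of the 12 h pairs left 0 genes past this test, and so did the fit without the replicate block.

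Fk and Ra are further compounds of the series whose abbreviations the labels do not spell out, and their 12 h arrays share one set of controls of their own. Doses are not given, so the responses are set side by side at one time and not at one dose. The Fk and Ra labels carry no laboratory number, so a difference of laboratory or culture cannot be told apart from one of compound. Control levels also differed. HSPA5 read 14.1, 13.1 and 13.8 on the Fk and Ra controls, against 13.1, 13.1 and 12.8 on the CsA controls. SDF2L1 read 8.42, 6.90 and 8.11 against 6.82, 7.04 and 6.98, and DNAJB9 8.68, 8.11 and 8.40 against 8.85, 8.90 and 8.69. Across 10679 genes the CsA 12 h differences had r = 0.15 with those of Fk and 0.21 with those of Ra. The ER list had a median difference of 0.18 with Fk and 0.18 with Ra, against 0.42 with CsA. In this list the CsA value was above the Fk value for 22 of 27 members and above the Ra value for 23. Among the 10679 genes it was above the Fk value for 5038 and above the Ra value for 4940. No member of the ER list differed at an adjusted p under 0.05: the smallest were 0.733 against Fk and 0.232 against Ra. HSPA5 was higher by 0.46 ± 0.245 with Fk and 0.41 ± 0.245 with Ra, and DNAJB9 by 0.93 and 0.92, close to its 0.99 with CsA. SDF2L1 differed by 0.22 with Fk and -0.05 with Ra, and CREB3L2 by 0.46 and 0.68. XBP1 was higher by 0.87 with Fk and 0.64 with Ra, both above its 0.59 with CsA. The ATF4 and CHOP list had a median of 0.48 with Fk and 0.16 with Ra against 0.20 with CsA, and the CsA value was above the Fk value for 7 of 27 members and above the Ra value for 14. DDIT3 was higher by 1.14 with Fk against 0.17 with CsA.

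**Figure D5:**
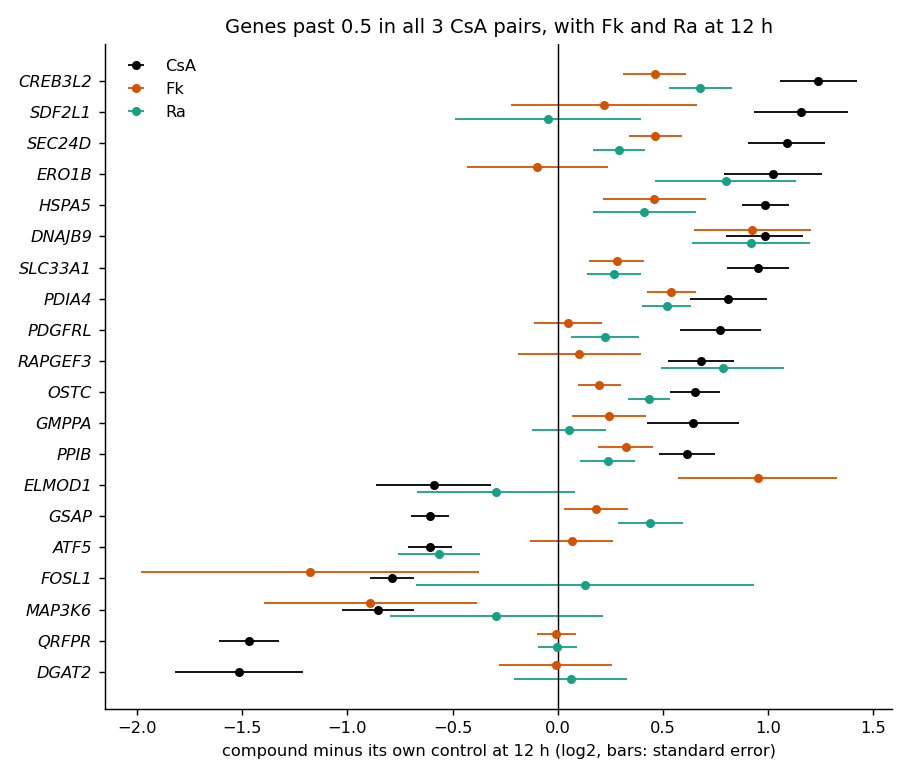
Difference from each compound's own controls at 12 h (log2 units, horizontal axis) for the 20 genes that were 0.5 or more from control in all 3 CsA pairs (vertical axis), with CsA in black, Fk in orange and Ra in green; bars are standard errors. The genes were selected on their CsA values, so their wide CsA values are set by that choice; DNAJB9 lies between 0.92 and 0.99 with all 3 compounds and QRFPR is near 0 with Fk and Ra.

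Of 10821 genes tested, 1 (0.00924%) differed between CsA and Fk at an adjusted p under 0.05, and 1 (0.00924%) between CsA and Ra. Both were QRFPR, at -1.46 (adjusted p 0.00417) and -1.47 (adjusted p 0.004). It read 2.39 to 2.57 on the controls of Fk and Ra, below the filter, where a lower level could not have been measured. Without CsA replicate 2 the call was lost against both, with adjusted p of 0.0555 and 0.0535, and without CsA replicate 3 the gene no longer passed the filter.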

How the data were processed

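The arrays hold 54675 probe sets. Per the submitters' processing notes and the series' design text, the authors processed all arrays together with GCRMA and deposited log2 expression values, so no scanner intensities were used here, and the values of one array depend on the others. The array version and scan days are not given in the sources used here, so a scan batch could not be tested. Probe sets with 1 gene symbol (41091) gave 19775 genes, each by the probe set of highest mean. The 1801 probe sets with several symbols, the 11721 with none and the 62 controls were left out. Entrez IDs matched RefSeq for 41037 probe sets.

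Genes with a log2 level over 4 on at least 3 of the 12 CsA-family arrays were fitted with limma 3.58.1 in R 4.3.3, with each pair of treated and control arrays as a fixed block (4 residual degrees of freedom). P-values were Benjamini-Hochberg adjusted over all genes tested and called under 0.05. The median SE was 0.111 and the 95% interval reached, in the median, 0.264 to either side, and the number of arrays limits the precision. An exact sign-flip test over 3 pairs cannot go below p = 0.25. CsA was set against Fk and Ra in a fit of the 12 h arrays, with pairs as a block in the CsA groups.

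Replicate numbers come from the titles. Every pair's residual correlation was over 0.1 (0.53 to 0.93 over both times), so the numbers were taken to pair the arrays. Some arrays of different number also passed this limit. At 12 h CsA 1 with control 2 gave 0.71 and CsA 2 with control 1 gave 0.68, and at 48 h CsA 2 with control 1 gave 0.15. The rule therefore cannot show that numbers 1 and 2 are matched correctly. Genes were named by rule: the 10 of lowest p each way with one sign in all pairs (none being called), the 5 widest each way for the difference between times, the 3 of lowest p in each of 30 lists, and all members of the binding protein and ER lists. Genes and lists were chosen with earlier results of these data known. Alternatives covered the block, filter, probe sets, normalization, variance model, arrays fitted and leaving out replicates. The script was tested on simulated data. Promoters came from the RefSeq GRCh38.p14 table, by symbol.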

Additional observations from a re-analysis of the deposited data

Results flagged for a closer look

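These results differ between 2 responses by a test of the difference in limma. The response to CsA differed between 48 h and 12 h for 209 genes. The 48 h minus 12 h difference was 1.72 for ISG20. It was 2.69 for LAMP3, 2.18 for LINGO2, 2.06 for CLIP4 and 1.92 for TMEM140, but these 4 genes were below 4 on all 12 h arrays, so the value holds their 48 h difference and no measurable 12 h response. It was -2.54 for DEFB1, -2.49 for PDK4, -2.43 for BRIP1, -2.43 for BRI3BP and -2.22 for ASF1B. It was -1.55 for CCNE2, -0.99 for GINS1 and -0.84 for POLA1. For ACSS2 it was -1.15, with opposite signs at the 2 times. For FOSL1 it was 1.27, but its levels were below 4 on all 48 h arrays, so its 48 h sign is not a measured response. It was 0.87 for CDKN1A, 0.83 for HMOX1 and 0.79 for NUCB2; HMOX1, the heme oxygenase, differed by -0.22 at 12 h and rose by 0.61 at 48 h.

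QRFPR differed between CsA and Fk at 12 h by -1.46 and between CsA and Ra by -1.47. It was below 4 on all Fk, Ra and shared control arrays, where a lower level could not have been measured, so these values hold the difference on the CsA and CsA control arrays and no measurable response to Fk or Ra. These comparisons share the CsA arrays and one set of Fk and Ra controls, so they are not independent of each other.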

How the results depend on the processing

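The replicate numbers were used as a block, and the fit with no replicate block left 0 genes called at 12 h, 1 at 48 h, 0 for the difference between times, and 0 against Fk and 0 against Ra. The 12 h count was 0 under 12 of 13 alternatives and 1 (HSPA5) with the trend and robust options. The 48 h count of 2484 was 206 with a block shared by both times, and with the 6 arrays of 48 h alone it was 457 with the block and 0 without. For the difference between times the count of 209 was 0 with a shared block, 94 with no filter, 437 with a filter at 6, 329 with the mean of all probe sets, 120 without _x_at and _s_at probe sets and 716 with trend and robust options. Leaving out a pair gave 0 to 331, and 0 for each 12 h pair. Against Fk the 1 call became 0 with a filter at 6 and 0 with trend and robust options, and 0 to 2 leaving out an array. Against Ra it became 6 with a block in both control families, 8 with no filter, 0 with a filter at 6, 4 with the mean of probe sets, 2 without _x_at and _s_at, 0 with trend and robust options, and 0 to 1 leaving out an array. The count of genes past 0.5 in every pair was 20 and went to 67 to 76 with 1 pair left out, where fewer pairs must pass. The ER list median of 0.42 was 0.33 with the mean of all probe sets. Its 21 members at an unadjusted p under 0.05 were 7 with no replicate block, 12 with a shared block and 10 to 15 with a pair left out. Apart from fewer pairs or genes tested, the cause was not tested.

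Of 134 gene differences with 1704 values under alternatives, 1560 kept sign and call, 130 lost a call, 1 gained one and 13 turned sign, in 8 genes. PPP3R1 was -0.14 without _x_at and _s_at probe sets, RCAN1 0.0305 and ABCB1 0.0633 with the mean of probe sets, and DERL1 0.0391 without _x_at and _s_at. PPIE was -0.0490 with the mean and -0.0467 without _x_at and _s_at, and ATF6 0.0722 with the mean and 0.0154 with quantile normalization. Leaving out a pair gave -0.0584 to 0.513 for PPP3R1, -0.0161 to 0.0815 for MTOR, -0.0408 to 0.0285 for PPIF, -0.0446 to 0.0529 for PPIE and -0.0407 to 0.0255 for ATF6. Levels under 4 are near background, and differences there are limited by it.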
